A study of Mus musculus with 6 samples.

Results

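Brown fat burns fuel to make heat, and the 9 genes described here are textbook parts of that programme: Ucp1, Cidea, Elovl3, Adrb3, Dio2, Ppargc1a, Prdm16, Zic1 and Kcnk3. They were chosen by name, without use of measured values, and all 9 were found among the 33919 genes of the deposited table. The study sequenced poly(A) RNA from 6 mouse samples labelled aorta. Its 3 samples labelled WT and 3 labelled KO had all received angiotensin II (Ang II), a vasoconstrictor peptide, so the comparison is between genotypes under one treatment. The title names endothelial OTUD1, a deubiquitinase, and its substrate SMAD3. The sources used here do not give the allele, any Cre driver, the strain or age, or the dose and length of the Ang II treatment. Otud1 did not fall in the KO-labelled libraries: it had 593, 699 and 615 counts in the WT-labelled libraries and 1033, 1141 and 1223 in the KO-labelled ones (log2 change 0.63, SE 0.12, adjusted p = 0.0039 by edgeR's quasi-likelihood test). The part of the gene removed is not stated, so this does not check the deletion itself. Groups are therefore called by their labels, and "higher" or "lower" always refers to the KO-labelled libraries set against the WT-labelled ones.

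In brown fat cells, noradrenaline from sympathetic nerves binds beta-adrenergic receptors, of which Adrb3 is the one typical of adipocytes, and raises cyclic AMP. Protein kinase A then releases fatty acids from lipid droplets and switches on genes such as Ucp1, Dio2 and Ppargc1a, in part through factors that bind the cyclic AMP response element (CRE). UCP1 lets protons return across the inner mitochondrial membrane without making ATP, so that fuel is burned as heat. Fat of this kind lies around the thoracic aorta of the mouse as well as between the shoulder blades.

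Because Ucp1, Dio2 and Ppargc1a share the cyclic AMP input, the stretch just upstream of each is shown, with matches to the CRE half-site TGACG on either strand in capitals. These are the 250 bases before the RefSeq start (GRCm38.p6), written 5′ to 3′ on the strand of the gene: chr8:83290098-83290347 (plus strand) for Ucp1, chr12:90739039-90739288 (minus strand) for Dio2 and chr5:51567726-51567975 (minus strand) for Ppargc1a.
Ucp1: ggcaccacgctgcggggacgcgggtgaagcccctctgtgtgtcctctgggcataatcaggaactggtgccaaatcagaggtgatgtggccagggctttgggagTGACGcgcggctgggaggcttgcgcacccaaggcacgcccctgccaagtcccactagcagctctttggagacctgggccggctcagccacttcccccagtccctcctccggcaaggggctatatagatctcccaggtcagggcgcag
Dio2: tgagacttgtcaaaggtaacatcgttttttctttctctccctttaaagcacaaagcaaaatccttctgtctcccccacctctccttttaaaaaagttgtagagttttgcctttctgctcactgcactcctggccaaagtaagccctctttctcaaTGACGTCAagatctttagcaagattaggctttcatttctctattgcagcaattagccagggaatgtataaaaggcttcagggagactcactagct
Ppargc1a: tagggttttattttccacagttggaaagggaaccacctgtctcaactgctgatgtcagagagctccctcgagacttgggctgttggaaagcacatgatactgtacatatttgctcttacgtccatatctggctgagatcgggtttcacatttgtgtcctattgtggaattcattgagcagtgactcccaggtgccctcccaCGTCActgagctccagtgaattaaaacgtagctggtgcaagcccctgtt
The Dio2 window holds the full element TGACGTCA, 95 to 88 bases before the start, and a full element contains an overlapping half-site on each strand. The Ucp1 window has a single half-site, 147 to 143 bases before the start, and so has the Ppargc1a window, 49 to 45 bases before it. Of 32851 such windows across the mouse genome, 1.55% held the full element and 17.8% a half-site. RefSeq windows were searched for 5 of the 9 genes, and those of Prdm16 and Zic1 held no half-site. A match describes letters only. Of the genes shown, Ucp1 was higher and Dio2 lower, and the part of these matches in either change was not tested.

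Total counts per library were between 62335027 and 71525109. Genes of the mitochondrial genome took 55.7% to 57.8% of the counts in the WT-labelled libraries and 50.5% to 53.3% in the KO-labelled ones, and nuclear copies of mitochondrial sequence took a further 14.3% to 16.0%. All other genes therefore rested on between 17343166 and 23363543 counts per library. The labels do not tie libraries to animals. Every SE, p-value and range from leaving out a library therefore reflects only how much these libraries vary, which may be technical. At an adjusted p of 0.05, edgeR called 3658 of the 16620 genes it tested (22.0%): 1907 were higher (11.5%) and 1751 lower (10.5%). With limma on log2(FPKM + 1) the split was 2734 higher and 824 lower, and the median log2 change of all genes was 0.11 in place of -0.02. Each of the 8 tested thermogenic genes had the same sign on both scales. The samples contained much RNA of other tissues. The 15 skeletal muscle markers summed to 27474 to 27944 CPM (counts divided by the scaled library size) in the WT-labelled libraries and 33809 to 35006 in the KO-labelled ones. The 10 smooth muscle markers of the aortic media, led by Acta2, summed to 571.4 to 572.9 and 219.1 to 226.4 CPM. In bulk tissue, fewer cells of a type and less RNA per cell cannot be told apart.

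Of the 9 thermogenic genes 8 passed the filter on low counts, and 4 of these were higher and 2 lower in the KO-labelled libraries, against 11.5% and 10.5% of all genes tested. Ucp1, Cidea, Elovl3 and Adrb3 were higher, Dio2 and Prdm16 were lower, Ppargc1a and Kcnk3 did not pass, and Zic1 was too low to test. The median log2 change of the 8 was 0.34, beside -0.02 over all genes. In 6 of the 8 every library labelled KO lay above every library labelled WT, and in 2 every one lay below, while groups did not overlap in 38.6% of all genes (19.3% above, 19.4% below). DESeq2 called 6 of the 8 higher and 2 lower, against 12.6% and 12.7% of its genes (25.3% in all). Limma on log2(FPKM + 1) called 6 higher and 1 lower, against 25.5% and 7.68% of its genes (33.2% in all).

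**Figure D1:**
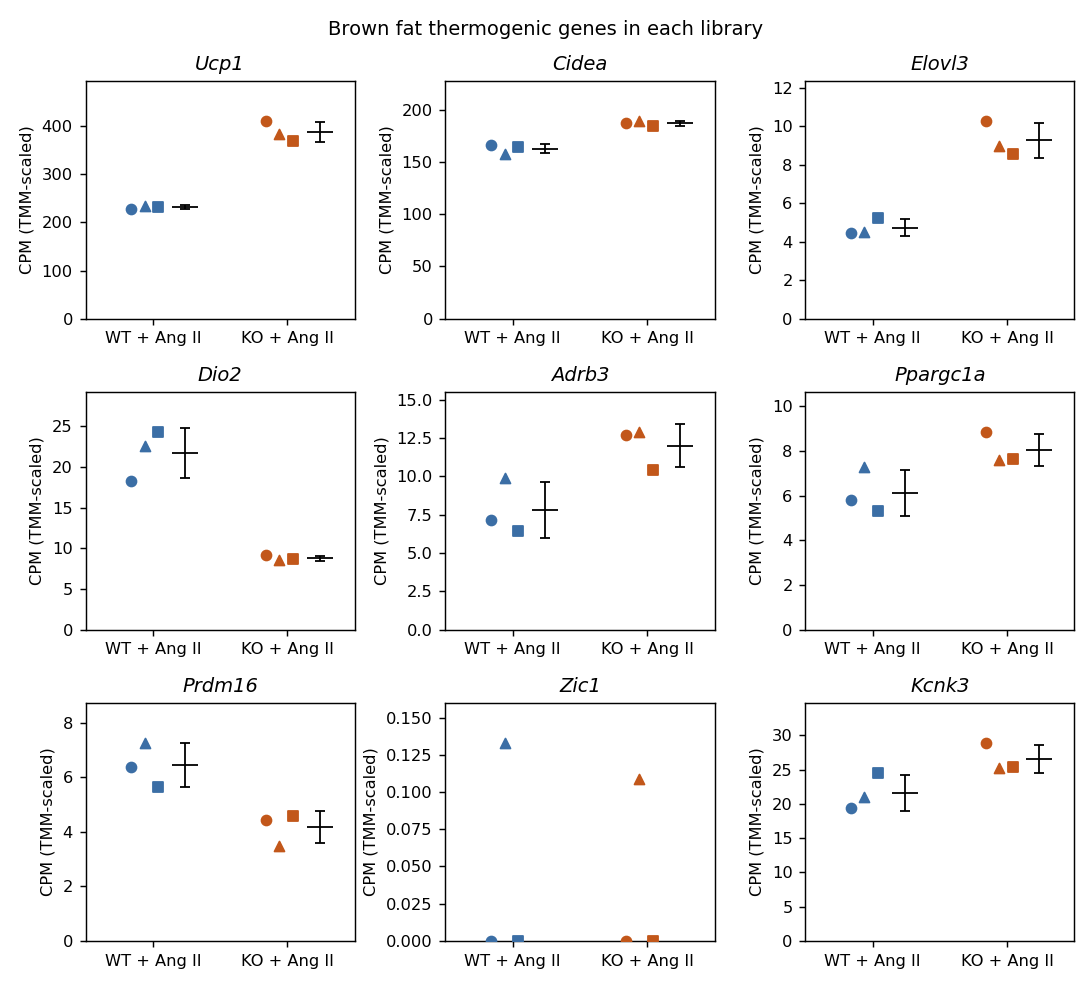
Each panel shows 1 gene, with CPM on a linear axis from 0 against the group. Points are libraries (circle, triangle and square for replicates 1, 2 and 3), and the bar beside them is the mean with its SD (n = 3; not drawn for Zic1). Ucp1, Cidea, Elovl3, Adrb3, Ppargc1a and Kcnk3 sit higher in the 3 libraries labelled KO, and Dio2 and Prdm16 sit lower.

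Ucp1 (ENSMUSG00000031710, chromosome 8, 83290352 to 83298452, plus strand, GRCm38, 6 exons) is the uncoupling protein itself. It had 15269, 14134 and 14563 counts in the WT-labelled libraries and 29313, 28087 and 26826 in the KO-labelled ones. On the scaled library size these were 227.4, 235.1 and 232.7 CPM against 411.6, 384.2 and 369.5 CPM. The lowest library labelled KO thus stood well above the highest labelled WT. The log2 change was 0.75 (SE 0.04, 1.68-fold higher, adjusted p = 9.5e-07 by edgeR), and leaving out any single library kept it between 0.70 and 0.78. Deposited FPKM, which divides by gene length and was not rescaled here, gave 121.8 ± 5.82 and 226.8 ± 20.8 (SD, n = 3 each), a ratio of 1.86. Other members of the uncoupling protein family are named after their values were seen. Ucp3, which is typical of skeletal muscle, went from 13.2 ± 1.93 to 27.3 ± 1.99 CPM (log2 change 1.05, adjusted p = 9.4e-05). Ucp2, which is broadly expressed, had 33.3 ± 0.442 and 35.7 ± 1.39 CPM (log2 change 0.10, adjusted p = 0.35).

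Cidea (chromosome 18), a lipid droplet protein that is abundant in brown fat, changed least among the genes called. It had 166.7, 157.9 and 164.0 CPM in the WT-labelled libraries and 187.5, 189.6 and 184.7 in the KO-labelled ones. The groups lay close together without overlap (log2 change 0.20, SE 0.04, 1.15-fold higher, adjusted p = 0.0054). This call depended on scaling: after quantile normalization of the FPKM values the log2 change was 0.01 (adjusted p = 0.81, limma). Since Ucp1 rose more than Cidea, the ratio of their FPKM within a library, which no scaling of libraries alters, was 0.930, 1.02 and 0.967 in the WT-labelled libraries and 1.5, 1.38 and 1.36 in the KO-labelled ones.

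Elovl3 (ENSMUSG00000038754, chromosome 19, 46131897 to 46135694, plus strand), an elongase of very long-chain fatty acids that is strongly induced by cold in brown fat, had the largest rise of the 9. Its counts were 299, 270 and 327 in the WT-labelled libraries and 736, 656 and 621 in the KO-labelled ones. In CPM these were 4.45, 4.49 and 5.23 against 10.3, 8.97 and 8.55. The groups were far apart relative to their spread (log2 change 0.98, SE 0.14, 1.97-fold higher, adjusted p = 0.00063). Its last bases overlap Pitx3 on the other strand, and whether the counting used strand is not stated by any source used here. Pitx3 itself had 169, 156 and 109 counts against 233, 215 and 313, and its part in the Elovl3 result was not tested. Skin also expresses Elovl3 in sebaceous glands, and the 9 skin and sebaceous markers in the table summed to 2.56 to 4.67 CPM in the WT-labelled libraries and 2.51 to 3.17 in the KO-labelled ones, with Krt5 and Krt1 at 0 in every library.

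Transcripts of Adrb3 and Dio2, genes tied to hormone input, moved in opposite directions. Adrb3 (ENSMUSG00000031489, chromosome 8, 27225776 to 27250616, minus strand), the receptor through which noradrenaline acts on fat cells, had 7.13, 9.88 and 6.46 CPM in the WT-labelled libraries and 12.7, 12.9 and 10.4 in the KO-labelled ones. The highest library labelled WT, replicate 2, came close to the lowest labelled KO, replicate 3. The log2 change was 0.62 (SE 0.17, 1.53-fold higher, adjusted p = 0.022). This call was lost without WT replicate 1 (adjusted p = 0.085), WT replicate 3 (0.081), KO replicate 1 (0.082) or KO replicate 2 (0.082). Adrb1, the beta receptor typical of the heart, is named after its values were seen. It had 0.808 ± 0.260 and 0.203 ± 0.0642 CPM (log2 change -1.99, adjusted p = 0.048), a call that was lost whichever library was left out (adjusted p between 0.051 and 0.16).

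Dio2 (ENSMUSG00000007682, chromosome 12, 90724552 to 90738438, minus strand, 2 exons) encodes the deiodinase that turns the prohormone T4 into active thyroid hormone inside the cell, and it is a classical target of cyclic AMP in brown fat. It was the member with the largest fall. Counts were 1230, 1350 and 1521 in the WT-labelled libraries and 650, 622 and 634 in the KO-labelled ones, or 18.3, 22.5 and 24.3 CPM against 9.13, 8.51 and 8.73. The libraries labelled KO were tightly grouped, with a coefficient of variation of 3.56% against 14.1% in the WT-labelled ones, and no library labelled KO reached the lowest labelled WT. The log2 change was -1.30 (SE 0.12, 2.47-fold lower, adjusted p = 2.1e-05), and it stayed between -1.41 and -1.21 when any single library was left out. On the log2(FPKM + 1) scale, which understates changes of low genes, it was -0.78. RefSeq places the start of Dio2 600 bases upstream of the deposited gene boundary, so those bases lie outside the deposited gene. Fibroblast markers, 9 of 10 of which were lower, and smooth muscle markers, 8 of 10 of which were lower, fell in the same libraries, and their part in the Dio2 result was not tested.

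Of the regulators, Prdm16 (ENSMUSG00000039410, chromosome 4, 154316125 to 154636866, minus strand), a transcriptional cofactor that directs cells to the brown fat fate and is also expressed in arteries, was lower. It had 430, 437 and 354 counts in the WT-labelled libraries and 317, 256 and 334 in the KO-labelled ones, or 6.40, 7.27 and 5.66 CPM against 4.45, 3.50 and 4.60. The groups did not overlap (log2 change -0.62, SE 0.17, 1.54-fold lower, adjusted p = 0.026). Without WT replicate 1 or 2, or KO replicate 1 or 2, the call was lost (adjusted p = 0.066, 0.096, 0.054 and 0.096). It also did not pass on the FPKM scale (log2 change -0.16, adjusted p = 0.15 by limma at a pseudocount of 1).

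Ppargc1a (ENSMUSG00000029167, chromosome 5, 51454250 to 51567704, minus strand), the coactivator PGC-1alpha that drives mitochondrial gene expression in brown fat and in muscle, had 5.79, 7.29 and 5.32 CPM in the WT-labelled libraries and 8.85, 7.61 and 7.65 in the KO-labelled ones. Its highest value labelled WT, replicate 2, lay just under the lowest labelled KO. The log2 change of 0.39 (SE 0.16) had an unadjusted p of 0.030, as 33.1% of all genes had one under 0.05, and an adjusted p of 0.10 by edgeR (0.045 without WT replicate 2). DESeq2 gave an adjusted p of 0.046 and limma on log2(FPKM + 1) one of 0.044.

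Zic1 (ENSMUSG00000032368, chromosome 9, 91358058 to 91365810, minus strand), a zinc finger gene that marks interscapular brown fat and is also expressed in the nervous system, had 0, 8 and 0 counts in the WT-labelled libraries and 0, 8 and 0 in the KO-labelled ones. All 6 values lie under the assumed floor of 12 counts, or 0.164 to 0.2 CPM, so no level and no difference could be read at this depth. Its neighbour Zic4, which overlaps it on the other strand, had 4 to 12 counts in 4 libraries and 0 in the other 2.

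Kcnk3 (ENSMUSG00000049265, chromosome 5, 30588170 to 30625271, plus strand) encodes the potassium channel TASK-1, which is found in brown adipocytes and in smooth muscle of the lung vessels. It had 19.4, 21.0 and 24.5 CPM in the WT-labelled libraries and 28.9, 25.3 and 25.4 in the KO-labelled ones. WT replicate 3 fell just short of the lowest library labelled KO. The log2 change was 0.30 (SE 0.10, adjusted p = 0.069), and without WT replicate 3 it was 0.40 (adjusted p = 0.026). The call was also made by DESeq2 (adjusted p = 0.0075) and by limma on log2(FPKM + 1) (0.038).

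**Figure D2:**
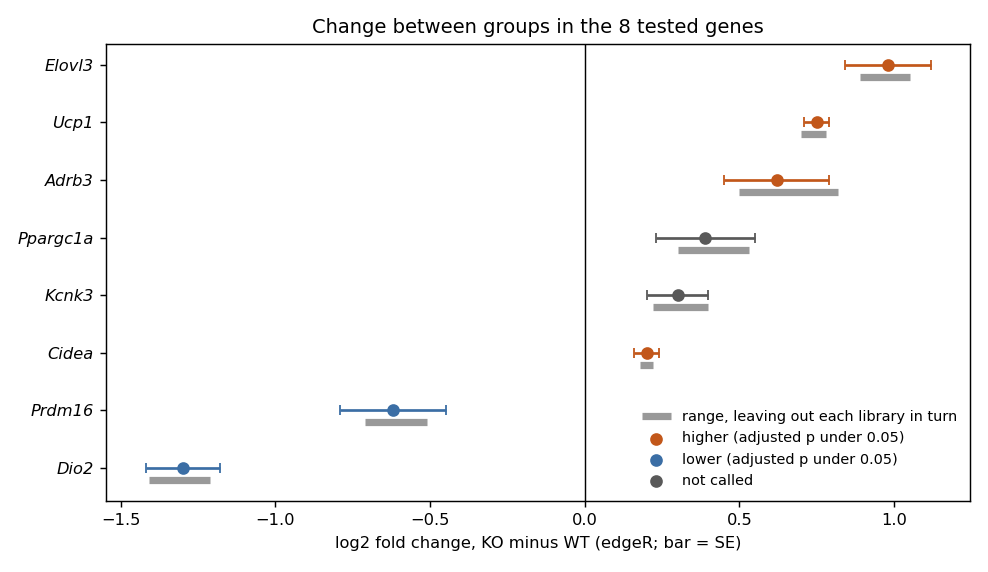
Points give the fitted log2 change between the groups for the 8 tested genes with its SE, coloured by call, and grey bars give the range when each library is left out in turn. Elovl3 is farthest to the right at 0.98 and Dio2 farthest to the left at -1.30, and no grey bar crosses 0.

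Levels per gene length spanned a wide range. In the WT-labelled libraries, mean FPKM ran from Cidea (125.6) and Ucp1 (121.8), whose values overlapped, through Kcnk3 (4.68) and Dio2 (3.21) to Elovl3 (2.06) and Adrb3 (1.97), which also overlapped, and then Ppargc1a (0.795), Prdm16 (0.590) and Zic1 (0.00605). In the KO-labelled libraries the order was Ucp1 (226.8), Cidea (160.2), Kcnk3 (6.37), Elovl3 (4.49), Adrb3 (3.39), Dio2 (1.44), Ppargc1a (1.16), Prdm16 (0.428) and Zic1 (0.00538), with no overlap between neighbours. Dio2 thus moved from the fourth to the sixth place. Ucp1 lay above 99.5% of all genes in the WT-labelled libraries and above 99.7% in the KO-labelled ones.

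**Figure D3:**
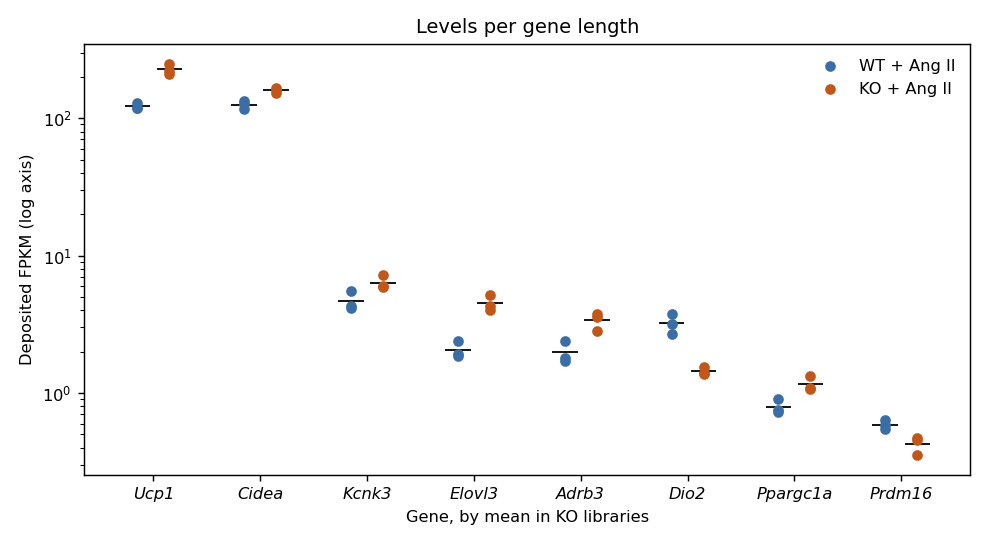
Deposited FPKM on a log axis is shown for each library (points) with group means (bars), ordered by the mean in the KO-labelled libraries; Zic1 is left out because 4 of its 6 values are 0. Ucp1 and Cidea stand above 100, and the other genes lie between 0.353 and 7.21.

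To compare the thermogenic genes with fat cell transcripts at large, each was set against the summed CPM of 18 general adipocyte markers of the same library, a sum that Fabp4, the fatty acid binding protein of adipocytes, leads. That sum differed little between groups, at 4843 to 4897 CPM in the WT-labelled libraries and 4959 to 4997 in the KO-labelled ones. Its members did not move together: 7 of 18 were called higher (38.9%) and 5 lower (27.8%), beside 11.5% and 10.5% of all genes. Mean Fabp4 went from 1789 to 1609 CPM and mean Lpl from 752.9 to 1017 CPM. How much of the sum came from cells other than adipocytes was not tested. The log2 ratio of Ucp1 to the sum was -4.43, -4.38 and -4.38 in the WT-labelled libraries and -3.59, -3.70 and -3.75 in the KO-labelled ones. The difference of 0.72 was larger than the spread of either group (SD 0.03 and 0.08), with p = 0.10 by a two-sided exact permutation test, the smallest p that 3 against 3 libraries allow. Dio2 moved the other way by this measure, by -1.32, and Prdm16 by -0.65. The fat cell hormone adiponectin (Adipoq), also named after its values were seen, had 82.0 ± 4.37 and 75.1 ± 1.10 CPM (log2 change -0.13, adjusted p = 0.15; its log2 change was 0.03 on the FPKM scale, and -0.26 with adjusted p = 0.0067 by limma after quantile normalization).

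**Figure D4:**
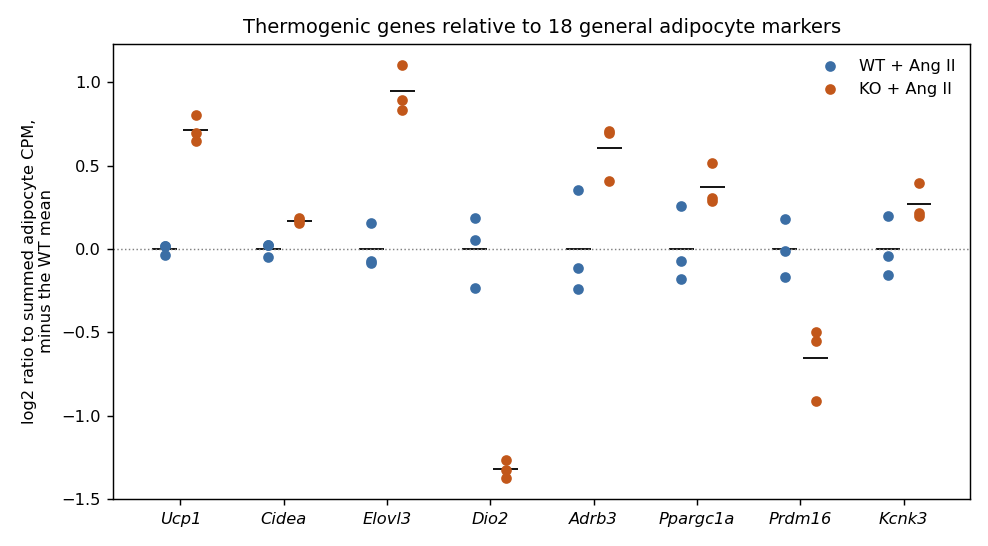
The log2 ratio of each gene to the summed adipocyte markers of the same library is shown as a difference from the mean of the WT-labelled libraries (points are libraries, bars are group means). The 3 libraries labelled KO lie above all those labelled WT for 6 genes and below them for Dio2 and Prdm16.

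Among 24 tested of 25 other genes of heat production and fuel use, 11 were higher (45.8%) and 2 lower (8.33%), where 11.5% and 10.5% of all genes were, with a median log2 change of 0.17 beside -0.02 over all genes (also 0.17 with Bmp8b, at 0 in every WT-labelled library, at its bound). Acot11, an acyl-CoA thioesterase of brown fat, rose from 11 ± 1.62 to 27.5 ± 2.30 CPM (log2 change 1.33, adjusted p = 2.0e-05). Cpt1b, which brings fatty acids into mitochondria, rose by 0.45 and Slc25a4, the ADP/ATP carrier of heart and muscle, by 0.28, although the latter had a log2 change of 0.07 (adjusted p = 0.22) after quantile normalization of FPKM. The 2 lower genes, named after their values were seen, were Cox8b (log2 change -0.36, adjusted p = 0.00012 by edgeR) and Ckb (-0.76, adjusted p = 7.6e-05). Skeletal muscle uses Cpt1b, Slc25a4 and Ucp3 as well. Among the 15 skeletal muscle markers 9 were higher (60%) and 3 lower (20%) in the same libraries (median 0.18), with Myh4 at 1.43, Myh2 at 1.04 and Acta1 at 0.70 on the log2 scale, and their part in these rises was not tested.

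Most regulators of the brown fat programme were not called: of 27 tested among 30, 17 did not pass, 5 were higher and 5 lower (18.5% each, beside 11.5% and 10.5% of all genes), with a median of -0.11. Pparg, the master regulator of fat cell differentiation, fell from 31.8 ± 1.03 to 17.9 ± 1.60 CPM (log2 change -0.83, adjusted p = 7.2e-05), and Cebpa, its partner, fell by 0.70 (adjusted p = 0.00018). Esrra, an orphan nuclear receptor that works with PGC-1alpha on mitochondrial genes, rose from 41.1 ± 3.20 to 64.0 ± 2.37 CPM (log2 change 0.64, adjusted p = 9.7e-05).

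In the adrenergic and thyroid list, 27 of 30 genes were tested, with a median of -0.20. The share called higher, 3 genes or 11.1%, was close to the 11.5% of all genes, while 9 genes or 33.3% were lower, beside 10.5%. Adcy5, an adenylyl cyclase that makes cyclic AMP, fell from 9.41 ± 0.592 to 2.95 ± 0.0857 CPM (log2 change -1.68, adjusted p = 1.1e-05). Prkar1a, a regulatory subunit of protein kinase A, fell by 0.63. Thrsp, a thyroid hormone-responsive gene of lipid synthesis, rose from 129.0 ± 9.05 to 211.3 ± 6.67 CPM (log2 change 0.71, adjusted p = 7.0e-06). The 6 markers of sympathetic nerve endings together had 4.47 to 10.6 CPM in the WT-labelled libraries and 4.72 to 6.57 in the KO-labelled ones. None of the 6 passed edgeR's test. In that test 2 had an unadjusted p below 0.05 (Ddc, 0.020, and Npy, 0.026), beside 33.1% of all genes. DESeq2 called both, beside 25.3% of its genes. Th, the enzyme that limits noradrenaline synthesis, had a log2 change of -0.83 (adjusted p = 0.17, and 0.025 without WT replicate 3).

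Markers that separate kinds of fat cell gave no single direction, and their shares are again to be read beside 11.5% higher and 10.5% lower among all genes. Among the other markers of classical brown fat 10 of 11 were tested, 3 were higher (30%) and 1 lower (10%), with a median of -0.14. Ntrk3, a neurotrophin receptor, rose by 1.11 and Slc36a2, an amino acid transporter on the brown adipocyte surface, by 0.32, while Epsti1 fell by 1.31 on the log2 scale. Of the 10 beige fat markers 8 were tested, and Tbx1 (1.0) and Slc27a1 (0.91) were higher (25%) and none lower, but the median was -0.14. In CPM 2 genes lay above and 2 below without overlap, beside 19.3% above and 19.4% below among all genes. Cd40 had a log2 change of -1.39 (adjusted p = 0.061, 0.0083 by DESeq2 and 0.021 without WT replicate 2). In the general adipocyte list 7 of 18 were higher (38.9%) and 5 lower (27.8%, median -0.10). Among them were Slc2a4, the insulin-responsive glucose transporter (0.99), Lpl (0.43) and Pck1, a phosphoenolpyruvate carboxykinase (-0.92). Skeletal muscle markers also moved in these libraries, with 9 of 15 higher (60%) and 3 lower (20%). Their part in the rises of Slc27a1 and Slc2a4 was not tested. Of 12 white fat markers 6 were lower (50%) and 2 higher (16.7%; median -0.56, or -0.33 with Tcf21 placed at its bound, since no KO-labelled library had a count of it). They included Dpt (-1.38), which is also a fibroblast gene, Serpina3k (-3.34), which is also made by liver, and Retn (0.53). Lep, named after its values were seen, was among the lower ones. It went from 2.88 ± 0.177 to 0.958 ± 0.0864 CPM (log2 change -1.59, adjusted p = 0.0016 by edgeR).

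**Figure D5:**
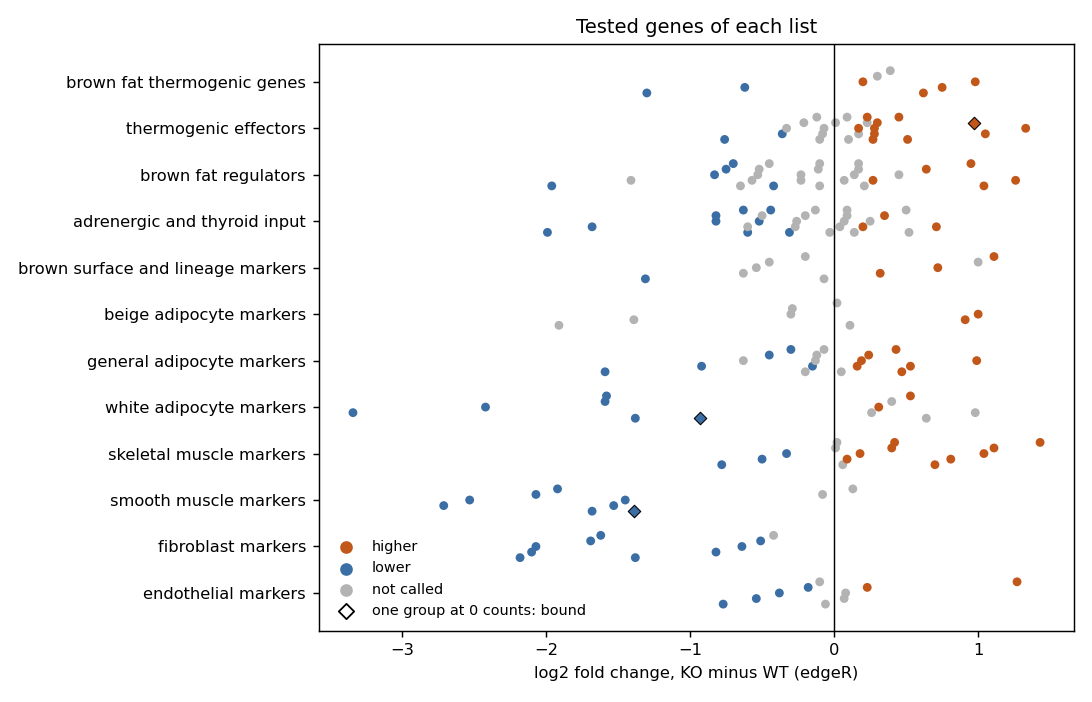
Each point is a tested gene, placed by its log2 change between the groups and coloured by call at an adjusted p of 0.05; diamonds are genes with 0 counts in all libraries of a group, drawn at the bound set by 12 counts per library. The thermogenic genes spread over both sides of 0, while points of the smooth muscle and fibroblast lists lie mostly to the left.

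Marker lists of other cell types, for which the same shares of all genes (11.5% higher, 10.5% lower) and the median of -0.02 apply, gave the following values, and their part in the results above was not tested. Smooth muscle markers had 8 of 10 members lower and 0 higher (median -1.80, or -1.60 with Myocd likewise at its bound), with Acta2 at -2.07, Tagln at -1.92 and Myh11 at -1.68. Fibroblast markers had 9 of 10 lower and 0 higher (median -1.5), with Col1a2 at -2.18 and Dcn at -1.69, and summed to 1116 to 1139 CPM in the WT-labelled libraries and 505.7 to 511.9 in the KO-labelled ones. Endothelial markers had 2 of 10 higher (20%) and 4 lower (40%), with a median of -0.08 near that of all genes. They included Vwf at 1.27, Cldn5 at -0.77 and Egfl7 at -0.54. Hepatocyte markers had 8 of 9 lower and 0 higher (median -2.76), with Alb at -3.31, Ahsg at -2.76 and Serpina1b at -2.74, and summed to 205.6 to 209.9 and 96.7 to 103.1 CPM. The larger part of both sums was Cyp2e1, at 116.5 ± 1.79 and 89.3 ± 3.03 CPM (log2 change -0.38). Of 3 tested skin markers Krt79 was lower (-0.95, adjusted p = 0.038, lost whichever library was left out, with adjusted p between 0.055 and 0.11). The other 2 were Krt10 (0.58, or -0.11 without KO replicate 3) and Mc5r (-1.14), with adjusted p of 0.65 and 0.34. None of the 6 tested neural markers passed edgeR's test. In that test 3 had an unadjusted p below 0.05, beside 33.1% of all genes: Syt1 (-1.49), Stmn2 (0.39, adjusted p = 0.091) and Gap43 (-1.90). DESeq2 called all 3, beside 25.3% of its genes.

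The genes whose profile over the 6 libraries lay nearest to that of Ucp1 were sought among 11593 genes with a mean of at least 1 CPM, by the root mean square difference of centred log2 CPM. They were Eef1a2 (0.032), a translation elongation factor of muscle and nerve, Trim54 (0.035), a ubiquitin ligase of striated muscle, Pla2g12a (0.039) and Gmpr (0.040). The thermogenic gene nearest to Ucp1 was Elovl3, at rank 386 (0.134), followed by Adrb3 at rank 1053 (0.199), Ppargc1a at 1324, Kcnk3 at 1698 and Cidea at 2352. For Dio2 the nearest were Cplx2 (0.058), Postn (0.098), Epsti1 (0.101) and Dstn (0.103), and Prdm16 stood at rank 817 (0.393). These distances describe 2 groups of 3 libraries and are set mostly by the size of the difference between them.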

How the data were processed

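Poly(A) RNA from 6 mouse libraries labelled aorta (3 WT, 3 KO, all Ang II) was sequenced in read pairs, per the labels' protocols, which also mention an adipose type; the labels do not tie libraries to animals, so a p-value here reflects only how much these libraries vary, which may be technical. The authors deposited whole-number counts and FPKM per gene; no source used here states how they computed either. Tools and build named in the submitters' processing notes, without roles, are HISAT2 2.0, Bowtie 0.12.2 and mm8. Gene boundaries equalled GENCODE M21 (GRCm38) for 85.9% of 33815 shared genes, and positions are printed as GRCm38. The table had 0 unused sample columns. Values from 1 to 40 were multiples of 4 in 33.0% to 34.9% of cases against 25% by chance, so most low values were not. The floor of 12 counts, or 3 read pairs at 4 counts each, is therefore an assumption.

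The test on counts was that of edgeR 4.0.16 under R 4.3.3 (filterByExpr, TMM, quasi-likelihood F-test on genotype, two-sided, Benjamini-Hochberg over 16620 genes, threshold 0.05). The CPM are TMM-scaled. The single ratio was tested with an exact permutation test (scipy 1.17.1). Alternatives were DESeq2 1.42.0, its size factors, no filter, robust empirical Bayes, a replicate block, counts divided by 4, no mitochondrial genes, limma 3.58.1 on FPKM, and leaving out each library. Counts were simulated for 16093 genes of this comparison, with 100 genes changed 1.5-fold and 100 changed 2-fold. Of these 33% and 58% were recovered, with 4 false calls. In the data a larger share of genes was called (22.0%), so recovery there may differ. Genes, lists and alternatives were chosen with earlier results of these data known. Named genes are the 9 thermogenic genes, 3 with the smallest p from each of 15 lists, and 4 nearest profiles for Ucp1 and for the gene with the largest fall. Promoter sequences are from RefSeq (GRCm38.p6). Figures were drawn with matplotlib 3.10.9.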

Additional observations from a re-analysis of the deposited data

How the results depend on the processing

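Ucp1, Elovl3 and Dio2 kept their direction and their call under all 17 alternatives, with log2 changes of 0.60 to 0.89, 0.70 to 1.09 and -1.41 to -0.78. For the 8 tested genes together, 113 of 136 alternative values stayed on the same side of the threshold, 14 lost a call (Prdm16 9, Adrb3 4, Cidea 1), 9 gained one (Kcnk3 5, Ppargc1a 4) and 0 changed sign. The number of thermogenic genes called lower was 2 in the edgeR test and 1 with the replicate block and with limma on FPKM at either pseudocount, without a filter or after quantile normalization, against 9.34%, 7.68%, 7.53%, 2.65% and 13.9% of all genes in these settings. It was 1 to 2 when a library was left out. The number called higher was 3 to 6, against 5.94% to 25.5% of all genes in these settings. Over all genes, the count lower went from 1751 to 2647 with DESeq2, and to 824, 808 and 754 with limma on log2(FPKM + 1), on log2(FPKM + 0.1) and without a filter. The cause was not tested.

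With the replicate number as a block, 3255 genes were called in place of 3658, and Prdm16 was not (adjusted p = 0.057). Deviations from the group means correlated at 0.024, -0.009 and 0.018 between libraries with the same number. What the numbers mark is not stated, and such correlations cannot exclude a modest effect shared by those libraries.

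Among 49 other named genes (without Cox8b, Ckb, Cyp2e1, Fabp4 and Lep), 763 of 806 values stayed on their side of the threshold, 20 lost and 19 gained a call, and 4 changed sign: Adipoq (0.03 in 3 of the FPKM settings) and Krt10 (-0.11 without KO replicate 3, and up to 1.03 without WT replicate 2). The Ucp1 ratio to adipocyte markers differed by 0.62 to 0.82 between groups; 2 of its alternatives, the mean log2 CPM of the list (0.82) and the list without Fabp4 (0.62), were chosen after seeing the data. Depth limits Zic1, which could not be tested.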
